A study of Homo sapiens with 9 samples.

Results

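Heat shock proteins are molecular chaperones, and co-chaperones are the partners that load, time and release their substrates. A set of 45 human genes for heat shock factors, heat shock proteins and their co-chaperones was followed in KG-1a cells, an established line of immature acute myeloid leukaemia cells, with and without an edited PRMT2 gene. The genes were listed by name with earlier results of these data known, so the list was not drawn up blind to their values, and all 45 were found by symbol among the 60605 genes of the authors' table. PRMT2 encodes a protein arginine methyltransferase. The groups were unedited wild-type cells (WT) and 2 PRMT2 knockout (KO) lines made with CRISPR/Cas9, called clone 1 and clone 2 here, with 3 RNA-seq libraries each. Each knockout group is 1 clone, so an effect of the edit and a difference between clones that has another origin cannot be told apart within a clone. All cells were grown in the same way and given neither drug nor heat shock, as far as the labels say. The labels do not state whether the libraries of a group came from separate cultures, and the p-values then measure only the spread between these libraries.

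Heat shock factor 1, encoded by HSF1, is held inactive by chaperones and is released when unfolded proteins occupy them. It then binds heat shock elements, which are inverted repeats of a short unit, in the promoters of genes such as HSPA1A, HSPA6, HSPB1, DNAJB1 and BAG3. HSP70 proteins bind unfolded segments with the help of J-domain proteins and are reset by BAG and HSP110 proteins, whereas HSP90 proteins mature client kinases and receptors with a further set of co-chaperones.

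The promoters of the members whose levels differed most, and of the inducible HSP70 pair, are shown first because the members carry different numbers of the heat shock motif. They are the 250 bases before the annotated gene start in the RefSeq promoter set (GRCh38.p14), written 5′ to 3′ on the strand of the gene, which is the forward strand for all 5. Capitals mark GAANNTTC or TTCNNGAA, which are 2 facing units of the element. Each form equals its own reverse complement, so both strands were searched at once, and overlapping matches were all counted. HSPB1 is at chr7:76302423-76302672, HSPA6 at chr1:161524290-161524539, HSPA1A at chr6:31815293-31815542, HSPA1B at chr6:31827488-31827737 and BAG3 at chr10:119651130-119651379.
HSPB1: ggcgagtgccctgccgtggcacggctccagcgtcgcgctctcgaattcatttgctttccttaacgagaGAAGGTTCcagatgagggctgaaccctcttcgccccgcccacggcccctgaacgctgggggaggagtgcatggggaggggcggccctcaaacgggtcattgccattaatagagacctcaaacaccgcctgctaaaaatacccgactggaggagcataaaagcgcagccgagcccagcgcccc
HSPA6: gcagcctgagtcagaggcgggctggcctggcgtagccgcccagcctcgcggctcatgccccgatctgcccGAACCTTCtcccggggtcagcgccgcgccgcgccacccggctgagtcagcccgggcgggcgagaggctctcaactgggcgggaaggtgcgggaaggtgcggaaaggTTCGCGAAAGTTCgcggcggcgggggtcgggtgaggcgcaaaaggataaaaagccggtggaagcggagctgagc
HSPA1A: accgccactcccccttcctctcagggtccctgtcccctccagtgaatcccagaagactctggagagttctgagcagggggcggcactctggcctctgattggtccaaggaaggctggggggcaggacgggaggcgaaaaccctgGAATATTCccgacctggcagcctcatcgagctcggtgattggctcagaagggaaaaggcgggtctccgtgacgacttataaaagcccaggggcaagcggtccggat
HSPA1B: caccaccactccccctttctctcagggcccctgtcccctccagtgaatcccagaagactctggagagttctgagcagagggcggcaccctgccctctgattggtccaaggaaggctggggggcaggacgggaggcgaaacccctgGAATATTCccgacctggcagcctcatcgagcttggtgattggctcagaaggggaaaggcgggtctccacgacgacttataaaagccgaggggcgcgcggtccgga
BAG3: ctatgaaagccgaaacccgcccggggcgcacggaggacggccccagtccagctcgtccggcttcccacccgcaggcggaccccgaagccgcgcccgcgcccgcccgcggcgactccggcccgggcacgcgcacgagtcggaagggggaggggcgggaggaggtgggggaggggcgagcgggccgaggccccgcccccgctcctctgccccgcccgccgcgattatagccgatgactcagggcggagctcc

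HSPA6 held 3 matches, from 180 to 69 bases before the start, and the last pair overlapped to form 3 adjoining units. HSPB1 held 1 match at 182 bases, HSPA1A 1 at 106 and HSPA1B 1 at 105. BAG3 held none in this window, which says only that these letters are not there. The HSPA1A and HSPA1B windows were 93.6% identical (235 of 251 aligned columns). For the full window of 250 bases before to 50 after the start, 38 of the 45 members had a RefSeq entry. The motif was in 13 of them (34.2%), against 13.7% of all 27305 promoters. Of the tested members with an entry, 10 held it and 24 did not, while 10.5% of the promoters of tested genes held it. The 13 are not all separate sites: the windows of HSPA1A and HSPA1L overlap on opposite strands and hold the same match, and HSPA1B resembles HSPA1A. The form with 3 adjoining units, GAANNTTCNNGAA or TTCNNGAANNTTC, was in 5 members (13.2%), namely HSPA6, HSPA8, DNAJA1, DNAJB6 and CHORDC1, and in 0.487% of all promoters. A match of these letters is a description of the sequence and was not taken as a bound site.

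Between 28006342 and 43149410 read pairs were counted on the strand of a gene in each library. PRMT2 stood at 39.4 ± 0.393 CPM (counts scaled to a common library size; mean ± SD, n = 3) in unedited cells, and the 2 knockout lines still held 20.7 ± 0.544 and 21.2 ± 0.153. Clone 1 replicate 1 stood apart, with 13.33% multimapping pairs, while the rest had 3.86% to 4.51%. Its mitochondrial ribosomal RNA (MT-RNR1 and MT-RNR2) summed to 27302 CPM, against 29.9 to 92.9 in the other 8 libraries. The leukaemia markers CD34, PTPRC, SPN, CD44 and LYL1 were at 132 CPM or more in every library, and FLT3 was near 0. In clone 1 and clone 2, CD44 rose by 0.61 and 0.28 on the log2 scale, LYL1 by 0.55 and 0.39 and CD34 by 0.23 and 0.29, while PTPRC fell by 0.12 and 0.18 and SPN was not called. Of 16 markers of red cells, monocytes, B cells, fibroblasts and epithelium, 14 were under 1 CPM, with HBB at 0 in every library. The 16 together came to 3.68 to 4.75 CPM in WT, 5.65 to 6.44 in clone 1 and 4.56 to 6.43 in clone 2. Among them COL3A1 rose in both clones (1.30 and 0.53), and CSF1R fell in clone 1 (-3.06, from a WT mean of 0.394 CPM). The part of these markers and of the mitochondrial RNA in the results was not tested.

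Of the 45 members, 39 passed the filter on low counts and were tested among 20655 genes. A call is an adjusted p under 0.05 in edgeR's quasi-likelihood test, and log2 fold changes are given with their standard error (SE). In clone 1, 7 members were higher than in WT and 15 lower, while 17.4% of all tested genes were higher and 18.8% lower. In clone 2, 14 were higher and 9 lower, against 14.4% and 16.1% of all genes. Both comparisons use the same 3 WT libraries. With a fold change of at least 1 on the log2 scale as well, the members were HSPB1, HSPA6 and BAG3 in clone 1 (7.58% of all genes) and HSPB1 and BAG3 in clone 2 (5.96%). They made up 7.69% and 5.13% of the tested members, near the shares of all genes. Many members are abundant, and small changes can then pass the adjusted p alone. The shares of all genes, here and below, were not matched for level. The median change of the tested members was -0.001 in clone 1 and 0.061 in clone 2. Over all tested genes it was 0.001 in clone 1 and rounded to 0 in clone 2. HSPA6 passed the filter only through clone 1, so its place among the 39 is not independent of its difference. Without clone 1 replicate 1, 7 members were higher in clone 1 and 13 lower, and without WT replicate 2, 6 were higher and 11 lower. Without clone 2 replicate 3, 9 members were higher in clone 2 and 8 lower.

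HSPA8 was the most abundant member, and a few chaperones made up most of the signal. Per kilobase of exon, WT cells held 603 ± 13.7 RPKM (CPM divided by exon length in kilobases; SD, n = 3) of HSPA8, 454 ± 4.22 of HSP90AB1 and 179 ± 5.78 of HSP90AA1. STIP1 followed at 73.1 ± 0.837 and FKBP4 at 53.1 ± 1.0. The exon length merges all annotated exons of a gene, so the order between genes depends on it. At the low end were DNAJA4, HSF4, HSPA2 and HSPA1L, between 1.22 and 0.221 RPKM, and HSPA6 at 0.0205 ± 0.0197. The summed level of all 45 members was 8072, 8085 and 8206 CPM in the WT libraries. It was 7261, 7215 and 7212 CPM in clone 1 and 8286, 8507 and 8398 CPM in clone 2. The 3 ranges did not overlap: clone 1 was lowest and clone 2 highest. Without HSPA8 the sums were 5133 to 5233 CPM in WT, 4783 to 4788 in clone 1 and 5254 to 5461 in clone 2, in the same order.

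**Figure D1:**
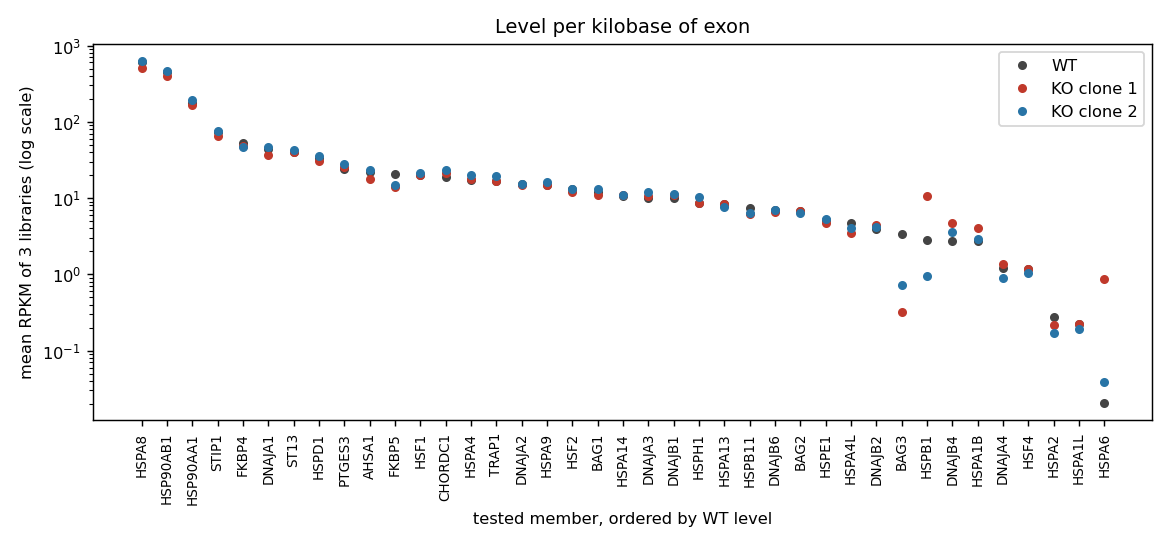
Mean RPKM of 3 libraries on a log scale for the 39 tested members, ordered by their WT level, with WT in grey, clone 1 in red and clone 2 in blue. The groups nearly coincide for the abundant members and separate at BAG3, HSPB1 and HSPA6, which lay at 3.37, 2.83 and 0.0205 RPKM in WT.

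The transcription factors of the response moved little. HSF1 stood at 109.8, 100.3 and 111 CPM in WT, 110.4, 105 and 106 in clone 1, and 114, 113 and 117 in clone 2. Clone 2 lay just above WT and clone 1 overlapped WT. Its log2 fold change in clone 2 was 0.10 ± 0.036 (adjusted p = 0.0284, and 0.271 without WT replicate 2), and in clone 1 the adjusted p was 0.995. HSF2, another factor that can pair with HSF1, stood at 34.4, 36.7 and 36.6 CPM in WT, 30.6, 33.4 and 32.7 in clone 1, and 35.4, 34.9 and 34.5 in clone 2. Clone 1 was below every WT library, and clone 2 overlapped WT. The fall in clone 1 was -0.15 ± 0.052 (adjusted p = 0.0156), and the adjusted p was 0.101 without clone 1 replicate 1. HSF4, best known from the lens, was between 3.55 and 5.14 CPM in the 9 libraries and was called in neither clone.

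Among the small heat shock proteins, HSPB1 changed in opposite directions in the clones. HSPB1 (HSP27, chr7:76302673-76304295) holds unfolded proteins in a soluble state without using ATP. It stood at 5.53, 3.56 and 4.71 CPM in WT, 17.7, 17.1 and 17.3 in clone 1, and 1.67, 1.36 and 1.61 in clone 2. No group overlapped another: every clone 1 library was above and every clone 2 library below WT. The rise in clone 1 was 3.79-fold (log2 1.92 ± 0.11, adjusted p = 2.45e-18) and the fall in clone 2 was 2.95-fold (-1.56 ± 0.14, adjusted p = 5.46e-12). Clone 2 was 11.2-fold below clone 1 (-3.48 ± 0.13, adjusted p = 4.59e-24). Both effects use the same WT libraries, and the difference between clones does not use their level.

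HSPB11 (IFT25), which is part of intraflagellar transport, fell in both clones. Its levels were 20.6, 22.4 and 23.0 CPM in WT, 19.6, 18.3 and 18.1 in clone 1, and 18.6, 18.5 and 20.3 in clone 2. All 6 knockout libraries were below all WT libraries. The log2 changes were -0.24 ± 0.067 (adjusted p = 0.00412) and -0.20 ± 0.065 (adjusted p = 0.0173), and the second reached 0.0888 without WT replicate 3. The other small members were barely counted. Over the 3 libraries of each group, HSPB6 had 4, 9 and 7 counts in WT, clone 1 and clone 2, HSPB8 had 2, 3 and 2, and CRYAB (alpha B crystallin) had 2, 12 and 1. By library, CRYAB was counted 1, 0 and 1 times in WT and 3, 8 and 1 times in clone 1. Most of its counts in clone 1 thus came from replicate 2. For CRYAB the ratio of clone 1 to WT was 7.28, with a 95% counting interval from 1.62 to 67.0. Such intervals cover counting error only.

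**Figure D2:**
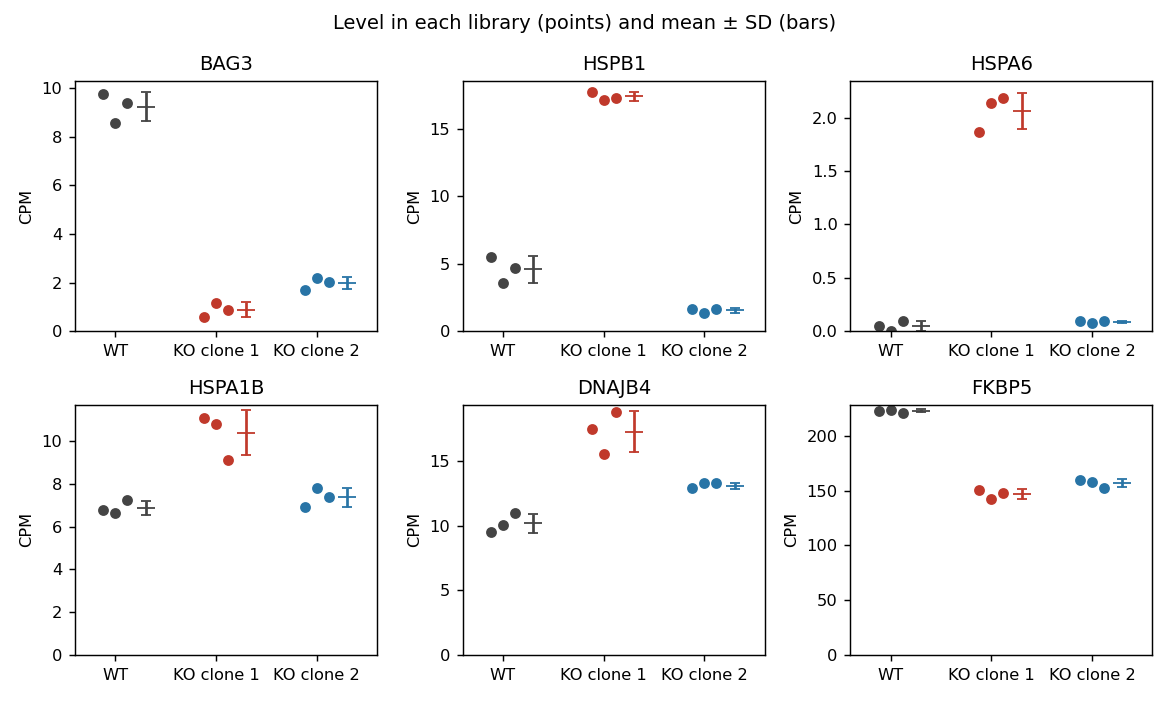
CPM in each library (points) with the mean and SD of 3 libraries beside them, for BAG3, HSPB1, HSPA6, HSPA1B, DNAJB4 and FKBP5, each axis starting at 0. BAG3 and FKBP5 are lower in both clones, DNAJB4 is higher in both, HSPB1 is higher in clone 1 and lower in clone 2, and HSPA6 and HSPA1B stand out in clone 1.

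HSPA6 and HSPA1B, which are stress-inducible HSP70 genes, rose in clone 1 and were not called in clone 2. HSPA6 (HSP70B', chr1:161524540-161526894) is an HSP70 gene that is silent in most unstressed cells. It was counted 2, 0 and 3 times in the WT libraries, 51, 69 and 71 times in clone 1, and 4, 3 and 4 times in clone 2. Those counts equal 0.0522, 0 and 0.0924 CPM in WT, 1.87, 2.14 and 2.18 in clone 1, and 0.097, 0.08 and 0.0935 in clone 2. Clone 1 was far above the other 2 groups, which were both at the level of a few counts. The ratio of clone 1 to WT was 46.4 (95% counting interval 19.5 to 144) and that of clone 1 to clone 2 was 22.9 (12.5 to 46.6). For clone 2 against WT the ratio was 2.02 and the interval, 0.648 to 7.43, included 1. The edgeR test gave adjusted p = 1.12e-13 in clone 1 and 0.379 in clone 2. Its fitted log2 values depend on the prior count when WT is this low, and 15.3% of its 150-base stretches also occur in HSPA7.

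HSPA1A and HSPA1B encode nearly the same major inducible HSP70 and are hard to separate by reads. Of the 150-base stretches of HSPA1B transcripts, 70.1% also occur in another gene, mostly HSPA1A, and 65.3% of those of HSPA1A occur in HSPA1B. Pairs that fit several places were not counted, and 36.6% of the exon bases of HSPA1B are shared with an overlapping gene on its strand, so both levels are uncertain. HSPA1B stood at 6.76, 6.65 and 7.24 CPM in WT, 11.1, 10.8 and 9.14 in clone 1, and 6.93, 7.79 and 7.39 in clone 2. Clone 1 was above all other libraries, and clone 2 overlapped WT. The rise in clone 1 was 1.5-fold (log2 0.59 ± 0.098, adjusted p = 3.91e-06), and clone 2 differed from WT by 0.10 ± 0.098 (adjusted p = 0.502). The difference between the clones was -0.49 ± 0.096 (adjusted p = 0.000108). HSPA1A was under the filter, with 0.0261, 0 and 0.154 CPM in WT, 0.256, 0.186 and 0.245 in clone 1, and 0.0242, 0.08 and 0 in clone 2. From 21 counts in clone 1 and 6 in WT its ratio was 4.25 (95% counting interval 1.66 to 12.9). HSPA1A was not tested. For clone 2 against WT its ratio was 0.613 (0.127 to 2.59). Their neighbour HSPA1L was between 0.427 and 0.704 CPM in the 9 libraries and was not called.

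The constitutive HSP70 genes did not follow that pattern. HSPA8 (HSC70) folds new proteins and uncoats clathrin vesicles. It stood at 2938, 2852 and 2983 CPM in WT, 2477, 2427 and 2425 in clone 1, and 3032, 3046 and 3024 in clone 2. Clone 1 was below every other library, and clone 2 was slightly above WT with no overlap. HSPA8 fell in clone 1 by 0.26 ± 0.033 on the log2 scale (adjusted p = 1.52e-08), and in clone 2 its difference was 0.05 ± 0.033 (adjusted p = 0.243). HSPA4L, an HSP110 gene, fell in both clones. It stood at 53.6, 54.8 and 53.0 CPM in WT, 38.7, 41.4 and 41.0 in clone 1, and 46.8, 48.9 and 44.4 in clone 2. The 3 groups were separate, with clone 1 lowest, at log2 -0.41 ± 0.046 and -0.21 ± 0.044 (adjusted p = 5.99e-10 and 0.000261).

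The other HSP110 genes rose in clone 2. HSPH1, an exchange factor for HSP70, stood at 72.2, 72.9 and 72.3 CPM in WT, 73.9, 69.8 and 72.1 in clone 1, and 83.3, 83.4 and 88.8 in clone 2. Clone 2 was above all 6 other libraries, at log2 0.23 ± 0.037 against WT (adjusted p = 2.81e-06) and 0.24 ± 0.038 against clone 1 (adjusted p = 2.5e-06). HSPA4 rose in clone 2 by 0.21 ± 0.039 (adjusted p = 3.28e-05), was at 0.03 ± 0.04 in clone 1, and differed between the clones by 0.18 ± 0.04 (adjusted p = 0.000472). HSPA2 (testis-enriched HSP70) fell in clone 2 at -0.67 ± 0.22, from 1.5 ± 0.0971 to 0.938 ± 0.0579 CPM (adjusted p = 0.0159, and 0.0551 without clone 2 replicate 1). HSPA13 fell there at -0.15 ± 0.056 (adjusted p = 0.0338, and 0.2 without clone 2 replicate 1), and HSPA14 was called in neither clone. HSPA12A and HSPA12B were under the filter with 2, 0 and 1 and with 3, 1 and 4 counts on their strand. The authors' deposited table, whose counts ignore strand, gives HSPA12B a mean of 178 normalised counts.

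Both cytosolic HSP90 genes fell in clone 1. HSP90AB1, the constitutive cytosolic HSP90, stood at 1361, 1339.8 and 1362 CPM in WT, 1166, 1180.5 and 1185 in clone 1, and 1362, 1373 and 1363 in clone 2. Clone 1 was below all other libraries. The log2 change was -0.20 ± 0.035 in clone 1 (adjusted p = 8.38e-06) and 0.01 ± 0.035 in clone 2 (adjusted p = 0.841). HSP90AA1, the inducible form, stood at 882, 941 and 913 CPM in WT, 850, 835 and 836 in clone 1, and 935, 1021 and 974 in clone 2. Clone 1 was below WT, and clone 2 overlapped it only at its lowest library. It fell in clone 1 (-0.12 ± 0.039, adjusted p = 0.0145) and rose in clone 2 (0.10 ± 0.039, adjusted p = 0.0486), and each call was lost when some single libraries were left out, with adjusted p up to 0.0789 without WT replicate 2 and up to 0.322 without clone 2 replicate 2. The difference between clones, 0.22 ± 0.039 (adjusted p = 2.7e-05), was called in all 15 alternatives.

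Of the mitochondrial chaperones, 4 of 5 rose in clone 2, while 14.4% of all tested genes did. HSPD1 (HSP60), which forms the folding chamber of the matrix, stood at 244, 269 and 253 CPM in WT, 229, 239.8 and 228 in clone 1, and 259, 291 and 274 in clone 2. Clone 1 lay below WT and clone 2 overlapped it. It fell in clone 1 (-0.14 ± 0.039, adjusted p = 0.00586, and 0.058 without WT replicate 2) and rose in clone 2 (0.11 ± 0.039, adjusted p = 0.0371, and 0.301 without clone 2 replicate 2). The call in clone 2 was kept in 9 of 15 alternatives, and was also lost without WT replicate 1, WT replicate 3 or clone 2 replicate 3, without regard to strand and with DESeq2. HSPE1 (HSP10), the lid of that chamber, stood at 9.55, 9.85 and 8.94 CPM in WT, 8.31, 8.82 and 8.5 in clone 1, and 8.7, 10.7 and 10.1 in clone 2. It was called in neither clone, and 10.5% of its exon bases are shared with the readthrough gene HSPE1-MOB4. Beside HSPD1, the genes that rose in clone 2 were HSPA9 (mortalin) by 0.14 ± 0.031, TRAP1 (mitochondrial HSP90) by 0.23 ± 0.039 and DNAJA3 (the J-domain partner of mortalin) by 0.24 ± 0.038. In clone 1 those 3 were at 0.01, 0.02 and 0.06 and were not called.

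**Figure D3:**
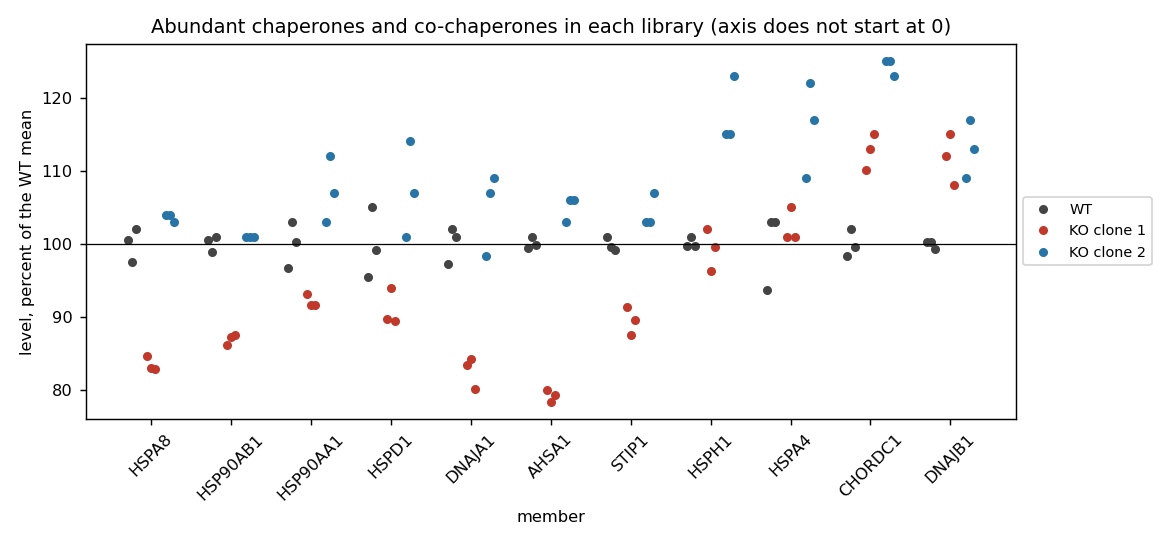
Level of 11 abundant members in each library as a percent of the WT mean, on an axis that does not start at 0. Clone 1 libraries lie at 78.4% to 93.9% for HSPA8, HSP90AB1, HSP90AA1, HSPD1, DNAJA1, AHSA1 and STIP1, and both clones lie above WT for CHORDC1 and DNAJB1.

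J-domain proteins bring substrates to HSP70 and start its ATP cycle. DNAJB1 (HSP40), the stress-inducible one, stood at 81.2, 81.2 and 80.4 CPM in WT, 90.4, 93.4 and 87.3 in clone 1, and 88.3, 94.7 and 91.7 in clone 2. All 6 knockout libraries were above WT, at log2 0.16 ± 0.037 and 0.18 ± 0.036 (adjusted p = 0.000522 and 0.000125). DNAJB4, a relative of DNAJB1, rose more. It stood at 9.55, 10.1 and 11.0 CPM in WT, 17.5, 15.6 and 18.8 in clone 1, and 12.9, 13.3 and 13.3 in clone 2. The groups were separate, with clone 1 highest: 1.69-fold in clone 1 (0.76 ± 0.081, adjusted p = 2.55e-10) and 1.29-fold in clone 2 (0.36 ± 0.081, adjusted p = 0.000437). DNAJA4 differed between the clones. It stood at 8.4, 7.34 and 8.29 CPM in WT, 8.86, 9.13 and 9.05 in clone 1, and 6.13, 5.87 and 5.47 in clone 2. Clone 2 was below all 6 other libraries and clone 1 just above WT, and the log2 change was -0.46 ± 0.098 in clone 2 (adjusted p = 0.00024) and 0.17 ± 0.096 in clone 1 (adjusted p = 0.168). DNAJA1, the main partner of HSPA8, fell in clone 1 by 0.28 ± 0.037 on the log2 scale (adjusted p = 5.02e-08). DNAJB6, which suppresses aggregation, was at -0.09 ± 0.034 there (adjusted p = 0.0349, and 0.138 without WT replicate 2), and DNAJB2 was at 0.19 ± 0.064 (adjusted p = 0.0178, and 0.158 without clone 1 replicate 2). The call of DNAJB6 was kept in 9 of 15 alternatives and that of DNAJB2 in 12. For DNAJB6 it was also lost with DESeq2, without WT replicate 3 and without each clone 1 library in turn. DNAJA2 was called in neither clone.

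BAG3 fell more than any other tested member in both clones. BAG3 (chr10:119651380-119677819) links HSP70 to the small heat shock proteins and to selective autophagy of aggregates. It stood at 9.76, 8.58 and 9.37 CPM in WT, 0.586, 1.18 and 0.89 in clone 1, and 1.7, 2.19 and 2.03 in clone 2. No group overlapped another. Over 3 libraries the counts were 1030 in WT, 83 in clone 1 and 239 in clone 2. BAG3 was 10.2-fold lower in clone 1 (log2 -3.36 ± 0.16, adjusted p = 1.18e-20) and 4.68-fold lower in clone 2 (-2.23 ± 0.14, adjusted p = 2.73e-17), and clone 2 was 2.19-fold above clone 1 (1.13 ± 0.2, adjusted p = 1.89e-05). Without clone 1 replicate 1 that difference was 0.93 (adjusted p = 0.000532), under the fold minimum of 1 on the log2 scale. In bulk RNA, fewer cells with the transcript and less transcript per cell cannot be told apart. BAG1, another exchange factor, fell in clone 1 (-0.13 ± 0.036, adjusted p = 0.00321) and rose in clone 2 (0.09 ± 0.035, adjusted p = 0.0361, and 0.15 without clone 2 replicate 3). BAG2, an inhibitor of the CHIP ubiquitin ligase, was called in neither clone.

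Genes next to the 3 members with the largest changes were looked up after those changes were seen. The tested gene 0.5 kb below HSPA6, FCGR2A, was at -0.10 in clone 1 (adjusted p = 0.743) and rose by 0.81 in clone 2 (adjusted p = 0.000344). ATF6, 239.4 kb above HSPA6, rose by 0.20 and 0.22 (adjusted p = 2.13e-06 and 3.88e-07). Next to BAG3, TIAL1 and INPP5F were between 0.02 and 0.04 in both clones and were not called. RGS10, 108.7 kb from BAG3, rose by 0.50 in clone 1 (adjusted p = 1.74e-12). MCMBP, 151.6 kb from BAG3, fell in both clones as BAG3 did, at -0.26 and -0.23 (adjusted p = 2.8e-06 and 1.38e-05). On the 2 sides of HSPB1, YWHAG at 22.5 kb and MDH2 at 235.2 kb fell in clone 1 (-0.09 and -0.17, adjusted p = 0.0184 and 0.000201). Neither was called in clone 2 (0.06 and -0.06). STYXL1 and ZP3 near HSPB1, and SDHC and DUSP12 near HSPA6, were called in neither clone. None of the neighbours tested changed by 1 or more on the log2 scale in either clone.

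The HSP90 co-chaperones split by gene. FKBP5 (FKBP51), an immunophilin of steroid receptor complexes and a target of the glucocorticoid receptor, stood at 223, 224 and 221 CPM in WT, 151, 142 and 148 in clone 1, and 159.9, 158 and 152 in clone 2. All knockout libraries were far below WT, at log2 -0.60 ± 0.031 and -0.51 ± 0.03 (adjusted p = 5.5e-20 and 1.2e-17). FKBP4 (FKBP52), its close relative, stood at 279, 269 and 275 CPM in WT, 247, 243 and 246 in clone 1, and 242, 246 and 244 in clone 2. The clones overlapped each other and not WT, at -0.16 ± 0.032 and -0.17 ± 0.032 (adjusted p = 5.85e-05 and 3.44e-05). CHORDC1 (morgana), an HSP90 partner whose window held 6 motif matches, stood at 208, 216 and 210.3 CPM in WT, 233, 239 and 243 in clone 1, and 265, 265 and 259 in clone 2. The groups were separate, with clone 2 highest, at 0.17 ± 0.032 and 0.32 ± 0.031 (adjusted p = 1.78e-05 and 5.25e-11). AHSA1, the activator of the HSP90 ATPase, fell in clone 1 by 0.34 ± 0.04 on the log2 scale (adjusted p = 2.68e-09), and STIP1 (HOP), which bridges HSP70 and HSP90, fell there by 0.16 ± 0.034 (adjusted p = 0.000185). Neither was called in clone 2. PTGES3 (p23) rose in clone 2 by 0.19 ± 0.037, and ST13 (HIP) by 0.11 ± 0.038 (adjusted p = 0.0296, and 0.303 without clone 2 replicate 2).

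**Figure D4:**
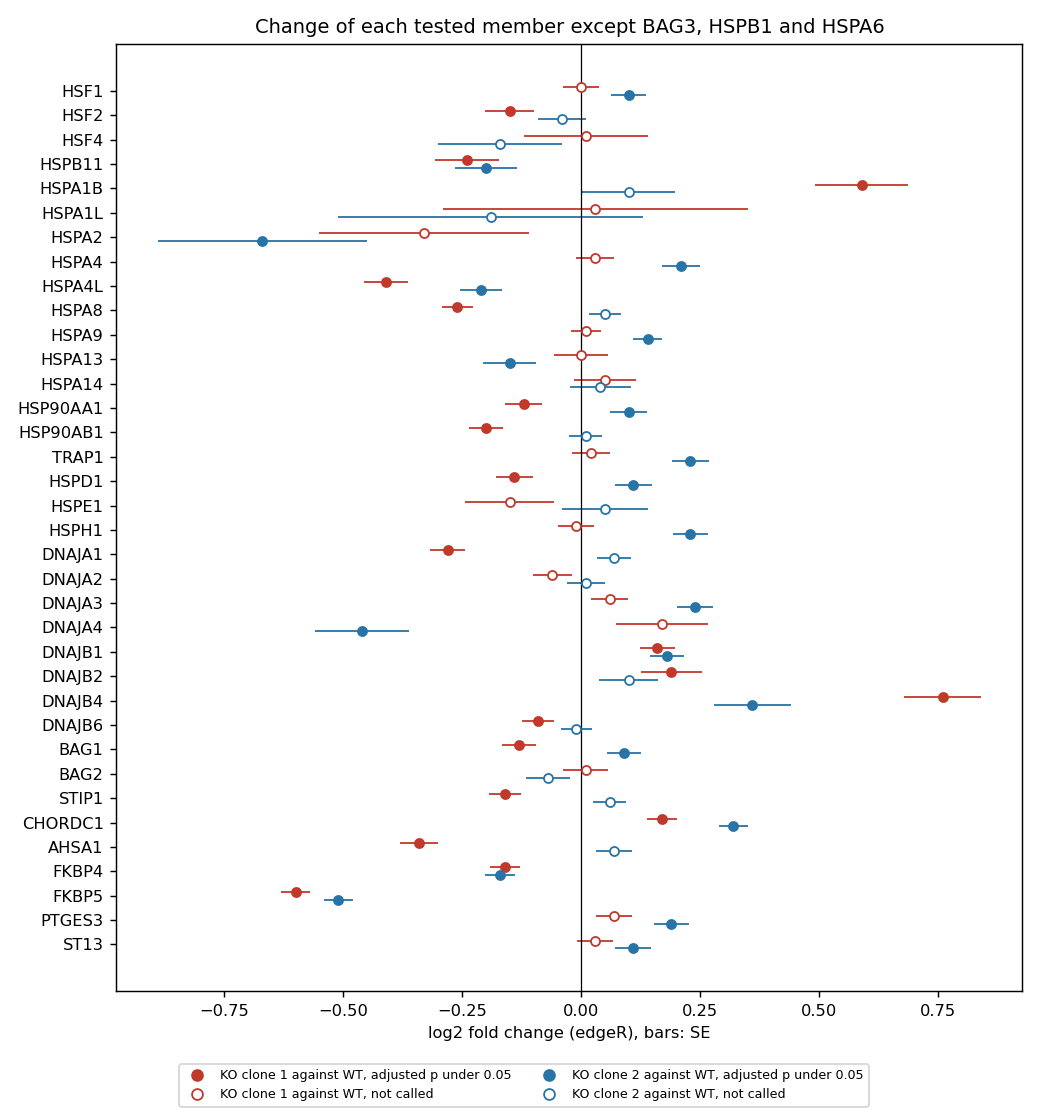
Log2 fold change against WT with its SE for the 36 tested members other than BAG3, HSPB1 and HSPA6, with clone 1 in red and clone 2 in blue and filled points for adjusted p under 0.05. FKBP5, FKBP4, HSPA4L and HSPB11 lie left of 0 in both clones, DNAJB1, DNAJB4 and CHORDC1 lie right of 0, and the filled red points of HSPA8, DNAJA1 and AHSA1 lie left of 0 while their blue points are open.

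Side by side, 3 members were higher in both clones (DNAJB1, DNAJB4 and CHORDC1), while 8.52% of all tested genes were. Another 5 were lower in both (HSPB11, HSPA4L, BAG3, FKBP4 and FKBP5), against 11.0% of all genes. HSPB1, HSP90AA1, HSPD1 and BAG1 were called in opposite directions, 4 of 39 tested members, and 1.35% of all genes were. For the last 3 of these the clone 2 call was lost under 6 to 8 of 15 alternatives. HSF4, HSPA1L, HSPA14, HSPE1, DNAJA2 and BAG2 were called in neither clone, as were 54.3% of all genes. These counts share the WT libraries between the clones.

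The direct comparison of the clones does not use WT levels. Clone 2 was higher than clone 1 for 19 members and lower for 6, while 13.4% of all tested genes were higher and 12.6% lower (25.9% in either direction). The median difference was 0.102 over the tested members and rounded to 0 over all genes. Among those higher in clone 2 were AHSA1 at 0.41 ± 0.039, DNAJA1 at 0.35 ± 0.037 and HSPA8 at 0.31 ± 0.033. The 6 that were lower in clone 2 were HSPA6, HSPB1, DNAJA4, HSPA1B, DNAJB4 and HSPA13. Only HSPB1, HSPA6 and BAG3 passed the fold minimum, as did 2.82% of all genes. Without clone 1 replicate 1, 18 members were higher and 6 lower, and without clone 1 replicate 3, 16 were higher and 5 lower.

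**Figure D5:**
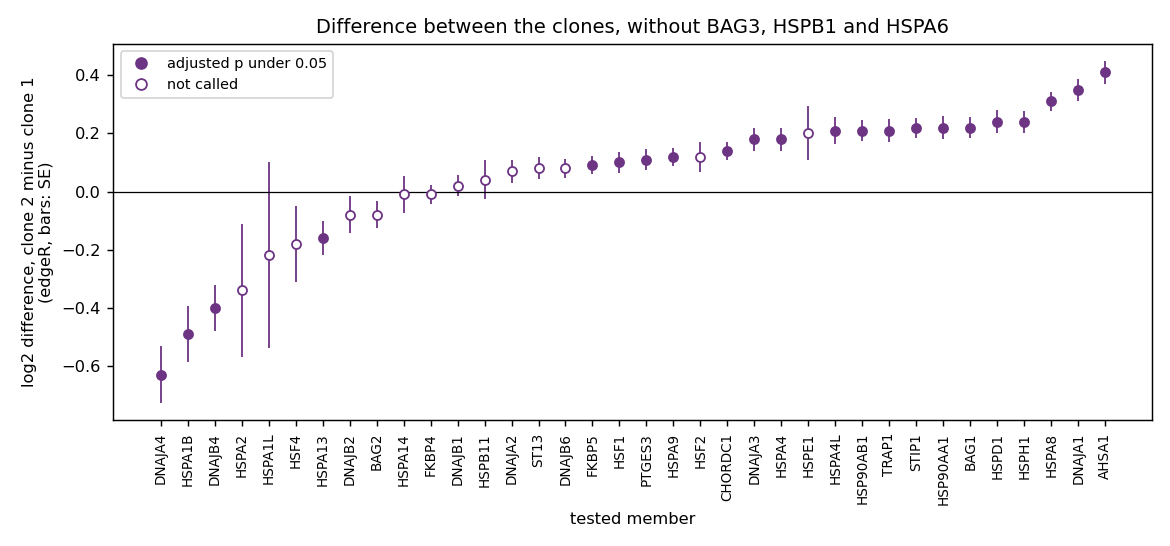
Log2 difference of clone 2 minus clone 1 with its SE for the 36 tested members other than BAG3, HSPB1 and HSPA6, in order of size, with filled points for adjusted p under 0.05. DNAJA4 is lowest at -0.63 and AHSA1 highest at 0.41, and the filled points to the right outnumber those to the left.

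Members with and without the heat shock motif were set against their changes as a description. Of the 10 tested members with the motif, 4 were higher and 3 lower in clone 1, and 2 were higher and 1 lower in clone 2. Of the 24 tested members with a window and no match, 3 were higher and 10 lower in clone 1, and 10 were higher and 6 lower in clone 2. Over all tested genes 17.4% were higher and 18.8% lower in clone 1, and 14.4% and 16.1% in clone 2. The median change in clone 2 was 0.06 both with the motif and without it. In clone 1 it was 0.02 with the motif and -0.09 without it. With 3 adjoining units the order turned: the median was -0.09 in the 5 members that held them, 2 of which were higher and 3 lower, and rounded to 0 in the 29 that did not. HSPA6 is among those with the motif and passed the filter through clone 1 alone.

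When the 2 clone effects were averaged, 12 members were higher and 10 lower, while 16.4% and 18.9% of all genes were. With both clones fitted as 1 group instead, so that the spread between clones adds to the error, 3 were higher and 5 lower. Those 8 are the members called in the same direction in both clones. That fit takes each knockout library as a replicate, so with 2 clones it is not a test at the level of clones. The authors' deposited table also compares both clones together with WT. It lists BAG3 at -2.62 (adjusted p = 5.41e-11), FKBP5 at -0.548 and HSPA6 at 4.50 (adjusted p = 0.016) on the log2 scale. HSPB1, whose clones moved apart, is listed there at 1.01 with an adjusted p of 0.609.

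Other chaperone systems are given by the counts of their genes that were called, to be read against all tested genes, of which 17.4% rose and 18.8% fell in clone 1 and 14.4% rose and 16.1% fell in clone 2. All 8 genes of TRiC, the cytosolic chaperonin that folds actin and tubulin, were tested, and 7 rose in clone 2 with a median of 0.16, while 2 rose and 2 fell in clone 1. CCT4 rose most in clone 2, at 0.25 ± 0.033. Of 13 chaperones of the endoplasmic reticulum, 10 fell in clone 1 (median -0.27) and 6 in clone 2 (median -0.093), and none rose. HSPA5 (BiP), the HSP70 of that compartment, had means of 373 CPM in unedited cells, 254 in clone 1 (log2 -0.55, adjusted p = 1.32e-16) and 349.6 in clone 2 (-0.09, adjusted p = 0.0448). Of 16 other HSP90 co-chaperones, 2 rose and 1 fell in clone 1, and 3 rose and 2 fell in clone 2. Of 25 other J-domain genes, 1 rose and 5 fell in clone 1, and 4 rose and 2 fell in clone 2, which is near the shares of all genes for falls in clone 1 and rises in clone 2. Of 9 other partners of HSP70, 2 rose and 2 fell in clone 1, and 3 rose in clone 2. No prefoldin gene of 6 was called in clone 1, and 1 rose in clone 2.

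Of 8 other targets and regulators of heat shock factor 1, 3 rose and 2 fell in clone 1, and 1 rose in clone 2. SERPINH1 (HSP47), the collagen chaperone, rose in both, by 0.36 and 0.62. Of 9 immediate early genes, which respond to handling and stress within minutes, JUN fell in both clones (-1.03 and -0.98) and JUNB fell in clone 1 (-0.19), and none rose. FOS, EGR1 and DUSP1 were called in neither clone.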

How the data were processed

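RNA from 9 libraries of KG-1a cells (3 WT, 3 of each knockout clone) was sequenced as read pairs. Per the labels and the series' design text, the authors aligned reads to GRCh38 with STAR and deposited raw counts per gene, without strand and for each strand; the aligner version and gene annotation are not given in the sources used here. The deposited table also holds the authors' signal values (counts divided by DESeq2 size factors) and their log2 fold changes and p-values for both clones against WT. Its counts ignore strand in all 9 libraries.

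Here the strand that held 92.03% to 92.31% of counted pairs was used, so that antisense transcripts stay out. Rows that name no gene were left out; gene counts were 25.93% to 29.59% of all pairs, and unmapped pairs 26.21% to 31.32%. Members were matched by symbol. Genes were filtered with edgeR's default on the 3 groups, scaled by TMM, and tested with edgeR 4.0.16 (R 4.3.3) in 1 quasi-likelihood fit over all groups with Benjamini-Hochberg adjustment over 20655 genes. DESeq2 1.42.0 was an alternative. The steps were tested on simulated data. RPKM was computed from CPM and the summed exon length in GENCODE, and a count of 3 equals 0.0695 to 0.1071 CPM. Intervals for count ratios are exact at 95%. Motifs were searched in RefSeq promoters.

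The members and lists were chosen with earlier results of these data known. Values in every library are given for a fixed set of core genes, for members past the fold minimum, for those called in the same direction in both clones and for the 5 with the largest difference between clones. Alternatives were RLE scaling, no filter, counts without strand, fits of only the groups compared, a replicate block, leaving out each library, and 3 motif units. The fit with both clones as 1 group and the neighbouring genes were chosen after seeing the data.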

Additional observations from a re-analysis of the deposited data

Results flagged for a closer look

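For 25 of the 39 tested members the effect against WT differed between the clones, by edgeR's test of clone 2 against clone 1 with an adjusted p under 0.05. Of all tested genes, 25.9% were called there. Values are log2 differences, clone 2 minus clone 1. The widest were HSPA6 at -4.46, HSPB1 at -3.48 and BAG3 at 1.13. HSPA6 rests on 191 counts in clone 1, 11 in clone 2 and 5 in WT.

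Also lower in clone 2 were DNAJA4 at -0.63, HSPA1B at -0.49, DNAJB4 at -0.40 and HSPA13 at -0.16. Those higher in clone 2 included AHSA1 at 0.41, DNAJA1 at 0.35 and HSPA8 at 0.31. HSPD1 and HSPH1 were both at 0.24. HSP90AA1, BAG1 and STIP1 were each at 0.22, and HSPA4L, HSP90AB1 and TRAP1 were each at 0.21. HSPA4 and DNAJA3 were both at 0.18, CHORDC1 was at 0.14, HSPA9 at 0.12, PTGES3 at 0.11, HSF1 at 0.10 and FKBP5 at 0.09. The calls of HSF1, HSPA13, FKBP5 and PTGES3 were lost when some single libraries were left out. Those of HSF1 and HSPA13 were also lost with DESeq2, and that of HSPA13 with counts without regard to strand.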

How the results depend on the processing

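Of the calls among 39 members, 17 of 22 in clone 1, 15 of 23 in clone 2 and 21 of 25 between the clones held under every alternative, which were another scaling, no filter, counts without strand, DESeq2, only the groups compared, the replicate block and each library left out. BAG3, FKBP4, FKBP5, HSPA4L, DNAJB1, DNAJB4, CHORDC1 and HSPB1 were among them in both clones. No called member changed sign. With both clones as 1 group, 3 members were higher and 5 lower in place of 12 and 10. Members higher in clone 2 numbered 9 to 15 when 1 library was left out (14 with all), with the 9 found without clone 2 replicate 3. The median change in clone 1 ran from -0.046 without WT replicate 2 to 0.017 without WT replicate 3. Without regard to strand, the summed level in clone 1 averaged 7258 CPM in place of 7229. With 3 motif units, 5 members held the motif in place of 13.

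Replicate numbers in the labels did not pair the libraries: deviations of same-numbered libraries correlated between -0.014 and 0.012. With the replicate block, all 39 members kept their side of the threshold in every comparison, and genes past the fold minimum numbered 1557 in clone 1, 1228 in clone 2 and 577 between the clones. Depth limits HSPA6, HSPA1A, CRYAB, HSPB6, HSPB8, HSPA12A and HSPA12B, whose values rest on a few counts in at least 1 group. Members that missed the threshold were not shown to be alike in the groups.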
